A study of Mus musculus with 6 samples.

Results

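Cadherins are calcium-dependent adhesion proteins, and the genes described here are the numbered cadherins (symbols of Cdh and a number, without the endothelial gene Cdh5) and the protocadherins (symbols starting with Pcdh). Genes were taken where the platform annotation gave a probe set a single symbol, and the probe set with the highest mean over the 6 arrays stood for a gene. This gave 55 genes of the 18193 with a single-symbol probe set, of which 20 were numbered cadherins and 35 were protocadherins. The annotation and the current RefSeq gene table gave the same symbol for all 55. The amygdala was profiled on the 1-colour Affymetrix Mouse430_2 array in 6 male mice of the inbred strain 129S1/SvImJ (S1), aged 8 to 10 weeks, 2 h after fear extinction training. Of these, 3 mice had the control diet (label Ctrl; replicates 1, 9 and 11) and 3 the zinc diet (label ZnR; replicates 3, 7 and 10), and all 6 had been trained. The labels do not state how much zinc either diet held, and no untrained mice or other strain were analysed here. Each mouse gave 1 array, and the labels do not say whether mice shared a cage or litter.

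Classical cadherins bind the same or a related cadherin on the neighbouring cell and hold the 2 membranes together at adherens junctions and synapses, with catenins linking their tails to actin. Type I members such as N-cadherin are broadly present, whereas type II members are found in restricted sets of neurons. Protocadherins lack the catenin-binding tail. Those of the delta groups lie as single genes across the genome and are known for regional patterns in the brain, while the alpha, beta and gamma genes lie in clusters, and neurons use different combinations of them to tell self from non-self.

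The 5 genes shown next had an unadjusted limma p under 0.05 for diet and have a promoter in the RefSeq table (GRCm38.p6). None passed the adjusted threshold, and the diets overlapped in Pcdh20. The mean of the zinc diet mice was below that of the control mice in 4 of them (Pcdh17, Pcdh19, Pcdh20 and Pcdh8) and above it in 1 (Cdh6). Each window runs from 250 bases before to 50 after a RefSeq transcript start, on the gene's strand. Capitals mark the CCAAT box (CCAAT, or ATTGG on the other strand) and the GC box (GGGCGG, or CCGCCC), which are binding motifs of general promoter factors. Cdh6 lies at chr15:13173626-13173925 (minus strand), Pcdh17 at chr14:84443313-84443612 (plus), Pcdh19 at chrX:133688944-133689243 (minus), Pcdh20 at chr14:88471347-88471646 (minus) and Pcdh8 at chr14:79771263-79771562 (minus).
Cdh6: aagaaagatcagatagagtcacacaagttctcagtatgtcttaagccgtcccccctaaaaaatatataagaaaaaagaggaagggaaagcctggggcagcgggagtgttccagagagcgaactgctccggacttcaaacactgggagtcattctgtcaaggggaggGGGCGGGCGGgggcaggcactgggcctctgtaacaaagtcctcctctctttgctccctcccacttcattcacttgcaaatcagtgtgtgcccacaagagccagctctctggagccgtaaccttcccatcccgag
Pcdh17: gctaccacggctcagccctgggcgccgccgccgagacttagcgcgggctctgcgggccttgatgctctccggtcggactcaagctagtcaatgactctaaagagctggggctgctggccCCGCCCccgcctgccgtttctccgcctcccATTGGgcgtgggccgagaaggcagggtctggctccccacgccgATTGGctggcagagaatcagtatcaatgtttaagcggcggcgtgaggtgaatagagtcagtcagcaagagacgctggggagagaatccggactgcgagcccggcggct
Pcdh19: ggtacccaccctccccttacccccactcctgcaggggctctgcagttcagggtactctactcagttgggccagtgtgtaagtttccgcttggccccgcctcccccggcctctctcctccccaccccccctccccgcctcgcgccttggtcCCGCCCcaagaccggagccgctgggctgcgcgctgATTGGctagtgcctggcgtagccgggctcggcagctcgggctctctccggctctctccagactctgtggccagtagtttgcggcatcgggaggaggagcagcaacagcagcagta
Pcdh20: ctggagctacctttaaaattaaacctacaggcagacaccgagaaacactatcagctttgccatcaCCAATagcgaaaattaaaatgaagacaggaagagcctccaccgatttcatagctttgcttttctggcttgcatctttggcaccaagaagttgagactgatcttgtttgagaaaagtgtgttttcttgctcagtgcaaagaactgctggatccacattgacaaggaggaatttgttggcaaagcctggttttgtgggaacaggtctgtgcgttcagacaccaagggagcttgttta
Pcdh8: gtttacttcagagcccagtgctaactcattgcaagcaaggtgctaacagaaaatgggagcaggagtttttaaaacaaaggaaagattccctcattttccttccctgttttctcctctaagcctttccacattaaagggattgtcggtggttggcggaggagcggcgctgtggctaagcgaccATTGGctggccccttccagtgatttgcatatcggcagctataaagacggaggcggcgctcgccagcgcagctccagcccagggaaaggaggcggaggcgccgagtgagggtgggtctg

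The 4 genes with the lower zinc diet mean hold 1 or 2 CCAAT boxes each, and the Cdh6 window holds 0. Cdh4, Pcdhb20 and Pcdhb21, also at an unadjusted limma p under 0.05, have no window here. Cdh6 alone thus stands for the higher genes, and the windows cannot relate a motif to the direction of change. Both GC boxes of the Cdh6 window overlap, Pcdh17 and Pcdh19 hold 1 each, and Pcdh20 and Pcdh8 hold 0. CCAAT occurs in 37.4% of the 32851 RefSeq promoter windows of this length and GGGCGG in 35.7%. The tested members had 20 windows for 17 genes, of which 15 held CCAAT and 8 held GGGCGG. The core of the metal response element, to which the zinc-sensing factor Mtf1 binds, was searched as TGCACNC or TGCGCNC on both strands. Of the 5 genes shown, Pcdh19 alone held a match (1), against 25.7% of all windows and 5 of the 20 member windows. A match is a run of letters in this window and does not show binding.

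A gene was tested when its mean log2 level over the 6 arrays was at least 4, which 34 of the 55 genes reached, namely 13 of 20 numbered cadherins and 21 of 35 protocadherins. None of the 34 passed a limma adjusted p of 0.05 over the 22877 probe sets tested, and 0 of all 11221 genes tested did (0%). The smallest adjusted p among the members was 0.31, for Cdh6. At an unadjusted limma p under 0.05, 8 members stood apart: 3 were higher with the zinc diet (Cdh6, Pcdhb20 and Pcdhb21), where 4.36% of all genes were, and 5 were lower (Cdh4, Pcdh17, Pcdh19, Pcdh8 and Pcdh20), where 2.68% of all genes were. The 8 are 23.5% of the members tested, beside 7.04% of all genes in both directions. The diets did not overlap in 12 members, 8 with every zinc diet mouse higher (8.12% of all genes) and 4 with every one lower (5.55% of all genes). The count of 8 moved with the mice included. Leaving out zinc diet replicate 7 gave 2 (5.88% of members, 3.81% of all genes), and leaving out control replicate 11 gave 3 (8.82% and 5.62%). With zinc diet replicate 10 omitted it was 4 (11.8% and 5.23%), and with zinc diet replicate 3 omitted 5 (14.7% and 6.43%). Omitting control replicate 9 gave 6 (17.6% and 6.47%), and omitting control replicate 1 gave 9 (26.5% and 10.1%). Cdh4 and Cdh6 kept an unadjusted p under 0.05 whichever mouse was left out.

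**Figure D1:**
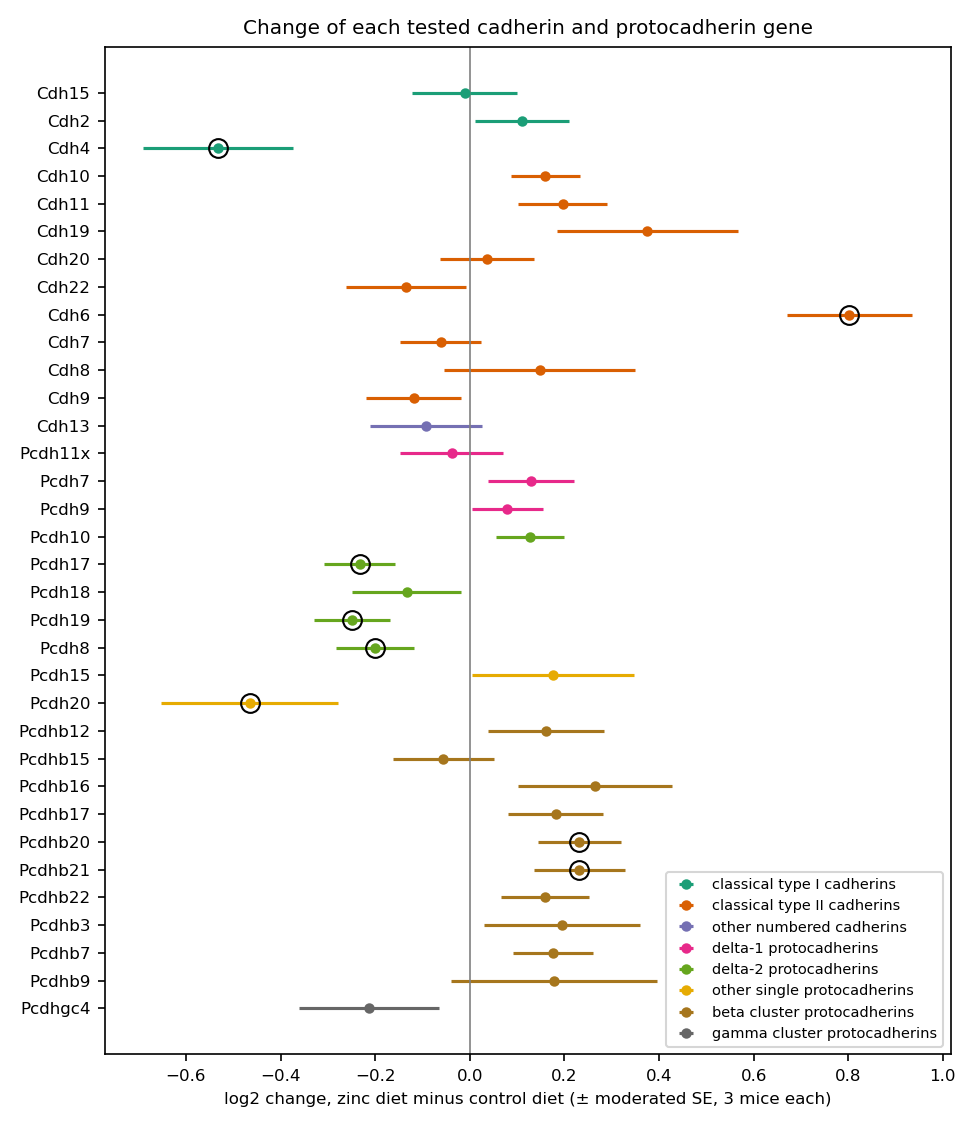
Log2 change, zinc diet minus control diet (x axis), of the 34 tested members (y axis), with bars of 1 moderated SE and 3 mice per diet; colours give the role group and black rings mark an unadjusted p under 0.05. Cdh6 lies farthest to the right at 0.80 and Cdh4 farthest to the left at -0.53, and 9 of the 10 beta cluster genes lie right of 0.

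Numbered cadherins and protocadherins differed little as whole sets. The median log2 change was 0.036 over the 13 cadherins tested (7 above 0, 6 below) and 0.13 over the 21 protocadherins tested (13 above, 8 below), beside 0.012 over all genes tested. The sign of the cadherin median was not stable: it was -0.014 with control replicate 1 omitted and -0.0044 with control replicate 11 omitted. The protocadherin median stayed between 0.082 and 0.14 when each mouse was left out. It was -0.014 with the second highest probe set of each gene, but that setting holds 18 members only and so covers other genes. Over every member, tested or not, the medians were 0.033 for the 20 cadherins and 0.075 for the 35 protocadherins. At an unadjusted p under 0.05 there were 2 of 13 cadherins and 6 of 21 protocadherins, beside 7.04% of all genes tested. The diets did not overlap in 5 of 13 and 7 of 21, beside 13.67% of all genes tested. Within the protocadherins the role groups lay on opposite sides: the delta-2 genes had a median of -0.20 (5 genes) and the beta cluster genes a median of 0.18 (10 genes). Across all settings run on these probe sets, including each mouse left out, the delta-2 median stayed between -0.24 and -0.15 and the beta median between 0.12 and 0.22.

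Cdh6, which encodes the type II K-cadherin, was the member with the largest difference. In each sentence that lists mice, control replicates 1, 9 and 11 come first and zinc diet replicates 3, 7 and 10 second, and all levels are log2. Cdh6 stood at 5.38, 5.86 and 5.75 in control mice and at 6.54, 6.40 and 6.45 in zinc diet mice. The zinc diet mice lay close together and all above the control mice, which spread more. The difference was 0.80 ± 0.13 (moderated SE), or 1.74-fold higher (limma adjusted p = 0.31), and its p ranked 25 among the 11221 genes tested. The difference stayed between 0.66 and 0.90 when each mouse was left out. Its other probe set had a mean of 3.24 and was not tested.

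Cdh4, the type I R-cadherin gene, ran the other way. Its levels were 9.04, 9.17 and 9.63 in control mice and 8.81, 8.78 and 8.65 in zinc diet mice. The zinc diet mice were all lower and closely spaced, with control replicate 11 the highest of the 6. The difference was -0.53 ± 0.16 (SE), a level 1.45-fold higher in control mice (limma adjusted p = 0.67), and it was -0.35 without control replicate 11. A second tested probe set gave 8.34, 8.20 and 8.27 against 7.81, 8.04 and 7.62, also without overlap (-0.45 ± 0.12, adjusted p = 0.59). Control replicate 11 did not stand apart on that probe set.

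**Figure D2:**
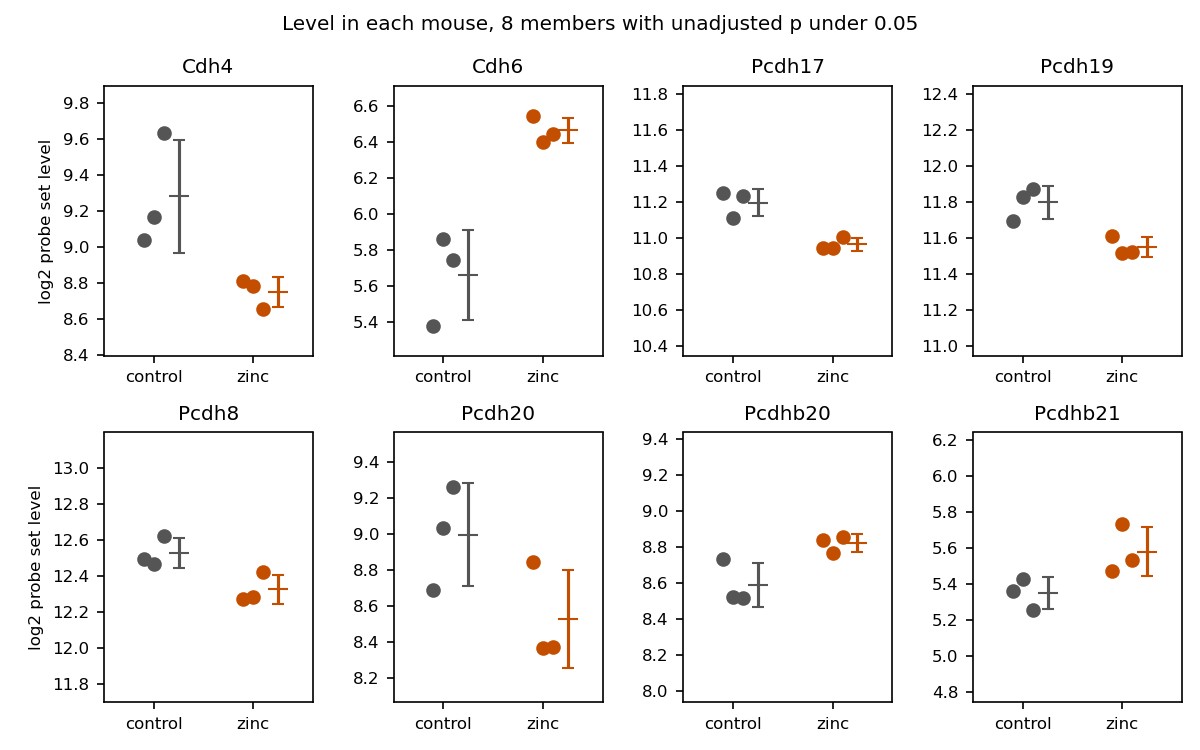
Log2 probe set level (y axis) in each of 3 control (grey) and 3 zinc diet (orange) mice for the 8 members with an unadjusted p under 0.05, with the mean and SD beside the points; every panel spans 1.5 log2 units. The diets do not overlap in 7 of the panels, and in Pcdh20 zinc diet replicate 3 (8.85) lies above control replicate 1 (8.69).

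The other type I genes showed little difference. Cdh2, which encodes N-cadherin, the main cadherin of excitatory synapses, was at 12.03, 11.72 and 11.89 in control mice and 11.93, 11.97 and 12.07 in zinc diet mice. The diets overlapped, with a difference of 0.11 ± 0.099 (SE, limma adjusted p = 0.90). Leaving out control replicate 1 gave 0.18, leaving out control replicate 9 gave 0.033, and omitting zinc diet replicate 10 gave 0.070. A second Cdh2 probe set differed by 0.0081 ± 0.091 (SE). Cdh15, the muscle M-cadherin gene, differed by -0.011 ± 0.11 (SE) at a level near 4.80. Cdh1 (E-cadherin) and Cdh3 (P-cadherin), known from epithelia, had means of 3.32 and 2.67 and were not tested.

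Among type II cadherins, 6 of 9 tested genes were above 0, with a median of 0.15. The median was 0.081 with zinc diet replicate 3 omitted, 0.094 with control replicate 11 omitted and 0.092 with no filter. In 4 of the 9 (Cdh6, Cdh10, Cdh11 and Cdh19) every zinc diet mouse was higher than every control mouse, which held for 8.12% of all genes tested. Cdh10 was at 9.69, 9.60 and 9.75 against 9.84, 9.84 and 9.84, so the zinc diet mice were nearly equal and just above the highest control mouse (0.16 ± 0.073 SE, limma adjusted p = 0.80). Cdh10 has 2 other tested probe sets, which disagreed: 1 gave -0.12 ± 0.15 and the other, at a level close to the filter of 4, gave 0.20 ± 0.077.

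Cdh11, the osteoblast cadherin gene that neurons also express, was at 9.85, 9.81 and 9.77 against 9.92, 9.92 and 10.18. Zinc diet replicate 10 was the highest and the other zinc diet mice lay just above the controls. The difference was 0.20 ± 0.094 (SE, limma adjusted p = 0.81), and 0.11 without zinc diet replicate 10. Its second probe set differed by 0.16 ± 0.11 (SE) with the diets overlapping. Cdh19 was at 4.70, 5.20 and 5.21 against 5.26, 5.74 and 5.24. Much of its difference lay in 2 mice: control replicate 1 was lowest and zinc diet replicate 7 highest. It was 0.38 ± 0.19 (SE, limma adjusted p = 0.82). Omitting either of these mice brought it to 0.21. Cdh19 is known from glia, and the summed linear level of 12 myelin and oligodendrocyte markers ranged from 27883 to 39257 in zinc diet mice and from 23695 to 31424 in control mice, with overlap. The part of these cells in the Cdh19 difference was not tested.

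Cdh8, a type II cadherin of cortical and limbic circuits, had overlapping diets at 8.91, 8.51 and 8.14 against 8.88, 8.51 and 8.62. Its spread within the control diet was larger than the difference of 0.15 ± 0.20 (SE, limma adjusted p = 0.94). Leaving out control replicate 1 gave 0.34 and control replicate 11 gave -0.042. Leaving out zinc diet replicate 3 gave 0.043 and zinc diet replicate 7 gave 0.23. The 2 lower probe sets of Cdh8 differed by 0.10 ± 0.091 and 0.0037 ± 0.10 (SE). The remaining tested type II genes were Cdh7 (-0.062), Cdh9 (-0.12), Cdh20 (0.036) and Cdh22 (-0.14), with unadjusted p from 0.28 to 0.73. Cdh9, which acts in hippocampal mossy fibre synapses, ranged from 10.03 to 10.41 over the 6 mice with the diets overlapping.

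Cdh13 encodes T-cadherin, which has no cytoplasmic tail and sits on the membrane by a lipid anchor. Its levels were 9.53, 9.84 and 9.95 in control mice and 9.63, 9.67 and 9.74 in zinc diet mice. The control mice enclosed the zinc diet mice on both sides, and the difference was -0.093 ± 0.12 (SE, limma adjusted p = 0.93). Omitting control replicate 1 gave -0.21, omitting control replicate 9 gave -0.058, and omitting control replicate 11 gave -0.0060. Of its other probe sets, 1 gave -0.016 ± 0.20 and the third, at a low level near 5.4, was higher without overlap (0.23 ± 0.087, adjusted p = 0.76). Cdh18, a type II gene, and Cdh16, Cdh17, Cdh23 and Cdh26 had means between 1.89 and 3.15 and were not tested.

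**Figure D3:**
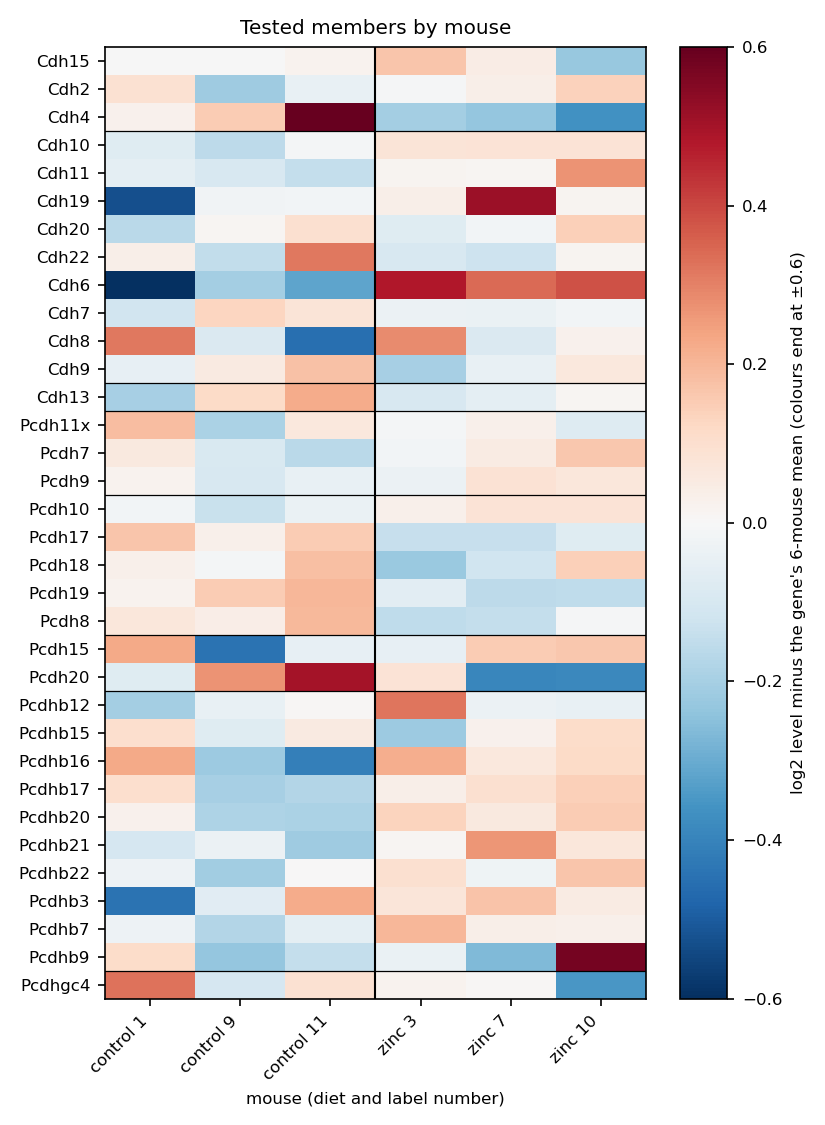
Heat map of the 34 tested members (rows, grouped by role) in the 6 mice (columns, control left of the line); colour is the log2 level minus the gene's mean over 6 mice, ending at ±0.6. Pcdh8, Pcdh17 and Pcdh19 are above their mean in every control mouse and below it in every zinc diet mouse. They are the delta-2 genes that were lower without overlap, so an average of them separates the diets by that choice. All 5 delta-2 genes averaged 0.016 to 0.14 with the control diet and -0.11 to -0.00087 with the zinc diet.

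The delta-2 protocadherins, known for regulating synapses and axon growth, had all 5 genes tested, and 4 were below 0. Of these, 3 stood apart by diet with every zinc diet mouse lower, which held for 5.55% of all genes tested. Pcdh19, an X-linked gene known from an epilepsy of females, was at 11.69, 11.82 and 11.87 against 11.61, 11.51 and 11.52. Every zinc diet mouse was lower than the lowest control mouse (-0.25 ± 0.080 SE, 1.19-fold, limma adjusted p = 0.71). Both other tested probe sets of Pcdh19 separated the diets too, at -0.25 ± 0.088 (SE, limma adjusted p = 0.74) and -0.45 ± 0.16 (SE, limma adjusted p = 0.73). The last of these gave 7.83, 8.42 and 7.90 against 7.65, 7.59 and 7.54, with control replicate 9 the highest.

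Pcdh17, which is known from presynaptic sites of corticobasal circuits, was at 11.25, 11.11 and 11.23 against 10.94, 10.94 and 11.01. The zinc diet mice lay close together, and all were lower. The difference was -0.23 ± 0.075 (SE, 1.18-fold, limma adjusted p = 0.70). Its second probe set gave -0.14 ± 0.087 (SE, limma adjusted p = 0.85) with the diets overlapping. Pcdh8, also called arcadlin, is induced by neuronal activity and takes N-cadherin off the synaptic membrane. Its levels were 12.49, 12.46 and 12.62 against 12.27, 12.29 and 12.42. The diets did not overlap, but zinc diet replicate 10 came close to the lowest control mouse (-0.20 ± 0.083 SE, 1.15-fold, limma adjusted p = 0.78). This probe set is of a design that can match related transcripts. The unmarked probe set of Pcdh8 gave 11.63, 11.50 and 11.67 against 11.34, 11.43 and 11.47, again without overlap (-0.18 ± 0.082, adjusted p = 0.80).

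Pcdh10, which takes part in activity-dependent synapse removal, was higher with the zinc diet. It stood at 11.17, 11.05 and 11.15 in control mice and at 11.22, 11.27 and 11.27 in zinc diet mice. No mouse overlapped, and the difference was small (0.13 ± 0.072 SE, limma adjusted p = 0.83). Of its 4 other tested probe sets, 3 were higher, at 0.26 ± 0.097 (limma adjusted p = 0.76, no overlap), 0.37 ± 0.22 and 0.28 ± 0.16, and 1 was lower at -0.086 ± 0.12. Pcdh18, the fifth gene of the group, differed by -0.13 ± 0.11 (SE) with overlap, and its second probe set by 0.25 ± 0.23.

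The delta-1 genes and the other single protocadherins showed no common direction. Pcdh7, of the delta-1 group, was at 11.65, 11.50 and 11.43 against 11.58, 11.65 and 11.76 with the diets overlapping (0.13 ± 0.091 SE, limma adjusted p = 0.87). Omitting control replicate 11 gave 0.081, and omitting zinc diet replicate 10 gave 0.082. Pcdh9 was at 11.82, 11.70 and 11.75 against 11.76, 11.88 and 11.86, again overlapping (0.079 ± 0.075 SE, limma adjusted p = 0.90; 0.050 without control replicate 9). Its second probe set gave -0.014 ± 0.17. Pcdh11x differed by -0.038 ± 0.11 (SE), and Pcdh1 had a mean of 2.89 and was not tested.

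Pcdh20 had the largest difference among the protocadherins, at 8.69, 9.03 and 9.26 in control mice and 8.85, 8.37 and 8.38 in zinc diet mice. Zinc diet replicates 7 and 10 were the lowest, whereas zinc diet replicate 3 lay above control replicate 1. The difference was -0.47 ± 0.19 (SE, 1.38-fold, limma adjusted p = 0.78). The second probe set of Pcdh20 gave -0.13 ± 0.13 (SE, limma adjusted p = 0.90), with overlap. Pcdh15, a tip-link protein of inner ear hair cells, differed by 0.18 ± 0.17 (SE), and control replicate 9 was its lowest mouse at 6.93 against 7.32 to 7.60 in the others. Pcdh12 had a mean of 2.96 and was not tested.

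**Figure D4:**
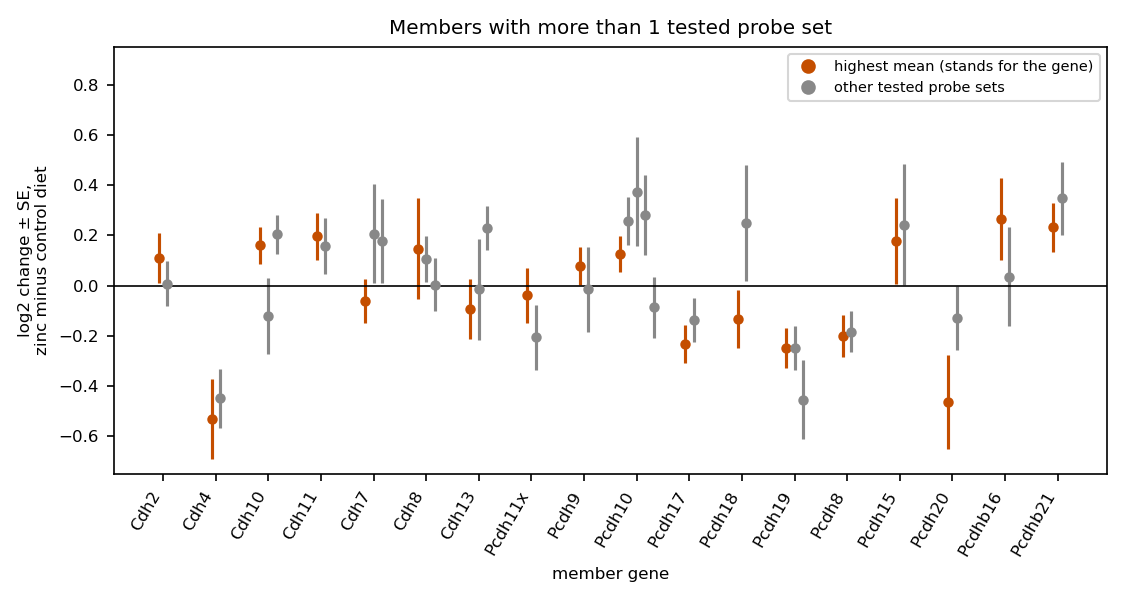
Log2 change with 1 moderated SE (y axis) on each tested probe set of the 18 members that have more than 1 (x axis); orange stands for the gene, grey are its other tested probe sets, 3 mice per diet. All probe sets of Cdh4, Pcdh8, Pcdh17, Pcdh19 and Pcdh20 lie below 0, and in 6 genes the probe sets lie on both sides of 0.

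Probe sets of 1 gene did not always give the same sign. Of the 60 member probe sets tested, 18 genes had more than 1, and all of a gene's probe sets shared a sign in 12 and differed in sign in 6 (Cdh7, Cdh10, Cdh13, Pcdh9, Pcdh10 and Pcdh18). The other 16 tested genes, Cdh6 among them, had 1 tested probe set.

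The beta cluster holds 22 protocadherin genes in a row, with 0 other protein-coding genes between them in the RefSeq table, and all 22 had a single-symbol probe set. Of the 10 tested, 9 were higher with the zinc diet. The share of genes above 0 was 54.5% over all genes tested. The median of the 10 was 0.18, and the changes lay between -0.056 (Pcdhb15) and 0.26 (Pcdhb16). Averaged over the 10, each gene taken as the deviation from its own mean, the mice stood at -0.024, -0.14 and -0.090 with the control diet and at 0.083, 0.040 and 0.14 with the zinc diet. The diets did not overlap in this mean, and control replicate 1 was the control mouse nearest to the zinc diet mice. The same mean also lacked overlap in 2 other role groups. Over the 9 type II cadherins it was -0.15 to -0.030 with the control diet and 0.054 to 0.11 with the zinc diet. That gap rests largely on Cdh6 (0.80), and 3 of the 9 genes were below 0. It therefore does not show a shift common to the type II genes. Over the 5 delta-2 genes it was 0.016 to 0.14 with the control diet and -0.11 to -0.00087 with the zinc diet.

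Pcdhb20 was at 8.73, 8.52 and 8.51 against 8.84, 8.77 and 8.86. The zinc diet mice were all higher, with control replicate 1 just below them (0.23 ± 0.088 SE, 1.17-fold, limma adjusted p = 0.76). Its neighbour Pcdhb21 was at 5.36, 5.43 and 5.25 against 5.47, 5.73 and 5.53. Zinc diet replicate 3 lay just above control replicate 9, and the difference was 0.23 ± 0.097 (SE, 1.17-fold, limma adjusted p = 0.78). The second probe set of Pcdhb21 gave 0.35 ± 0.15 (SE, limma adjusted p = 0.78) with overlap. Pcdhb16 was at 7.35, 6.90 and 6.71 against 7.34, 7.19 and 7.24. Control replicate 1 was the highest mouse, and the diets overlapped (0.26 ± 0.16 SE, limma adjusted p = 0.85). Omitting control replicate 1 gave 0.45, and omitting control replicate 11 gave 0.13.

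**Figure D5:**
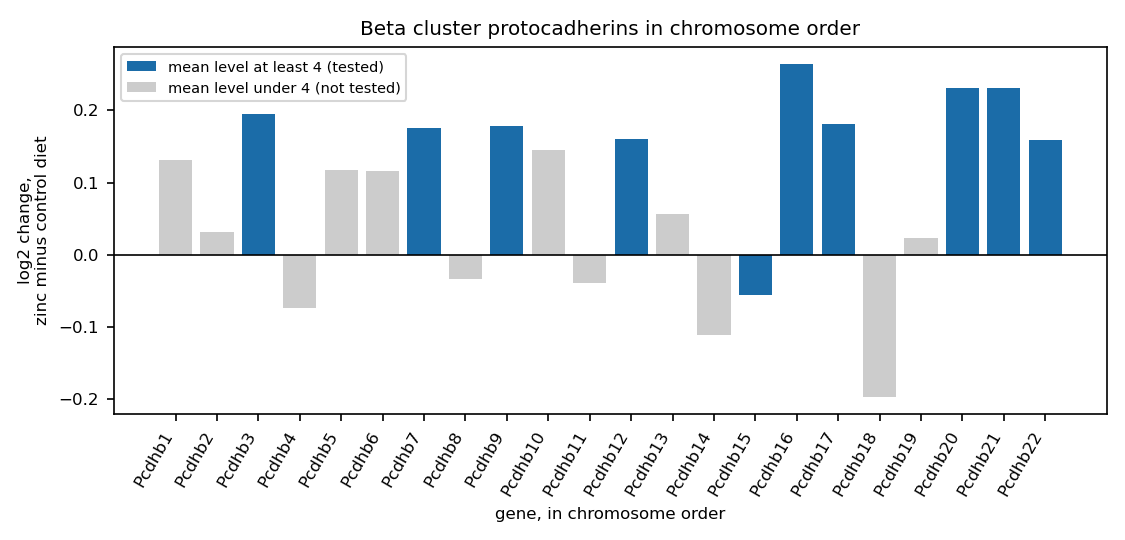
Log2 change, zinc diet minus control diet (y axis, bars from 0, 3 mice per diet), of the 22 beta cluster protocadherins in chromosome order (x axis); blue bars were tested and grey bars had a mean level under 4. Of the blue bars 9 of 10 lie above 0, and of the grey bars 7 of 12.

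Among the others, Pcdhb7 was higher without overlap (0.18 ± 0.085 SE), and Pcdhb3, Pcdhb9, Pcdhb12, Pcdhb17 and Pcdhb22 lay between 0.16 and 0.19 with overlap. The 12 beta genes under the filter ranged from -0.20 to 0.15, with 7 above 0. Over all 6972 genes under the filter, 44.6% were above 0. Beta genes are close copies of each other, so a probe set of 1 of them can take signal from another, and their probe sets are not independent measurements. Pcdhb15 is read by a probe set of a design shared between transcripts.

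The gamma cluster was represented by Pcdhgc4 alone, known for its part in neuron survival. It was at 5.87, 5.45 and 5.64 against 5.57, 5.55 and 5.20 with overlap (-0.21 ± 0.15 SE, limma adjusted p = 0.87). Omitting control replicate 1 gave -0.10, and omitting zinc diet replicate 10 gave -0.093. No alpha cluster gene had a probe set of its own. The 6 probe sets whose annotation lists 9 to 14 alpha cluster genes at once stand for none of them and lie outside the 55 members. Of these, 4 were tested, all above 0 (0.087 to 0.23), with 0 at an unadjusted p under 0.05 and the diets overlapping in each.

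The 21 members not tested had means from 1.89 (Pcdhb18) to 3.68 (Pcdhb14), against 4.06 for Cdh20 and 4.06 for Pcdhb15, the tested members nearest the filter. The largest difference among them was in Cdh1, at 2.87, 3.42 and 2.78 against 3.05, 3.87 and 3.92, or 0.59, from levels that cannot be told from background. The other 20 lay between -0.20 and 0.15.

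In the lists of partner genes of cadherins and protocadherins, 0 genes passed the adjusted threshold. Of 13 catenin genes 9 were tested, with a median of -0.040 and 0 at an unadjusted p under 0.05. The summed linear level of all 13 did not overlap between diets, at 24210 to 24914 in zinc diet mice and 25020 to 25322 in control mice. Ctnnb1, the beta-catenin gene, has the highest level and weighs most in this sum. It differed by -0.040 ± 0.067 (SE) with the diets overlapping, and 4 of the 9 tested catenin genes were above 0. Ctnnd1, the p120 catenin gene, differed by 0.27 ± 0.14 (SE), Pkp2 by -0.32 ± 0.17 and Ctnna2, the neuronal alpha-catenin, by 0.17 ± 0.13. Of 24 other cadherin superfamily genes 11 were tested (median 0.0098), and 1 was higher and 0 lower at an unadjusted p under 0.05. It was the large atypical cadherin gene Fat3, at 10.29, 10.37 and 10.35 against 10.55, 10.56 and 10.57 without overlap (0.22 ± 0.068 SE, limma adjusted p = 0.70). Ret (0.22 ± 0.11) and Fat4 (-0.21 ± 0.13) came next.

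Genes of protocadherin promoter choice and chromatin looping gave a median of 0.021 over 17 tested of 18, with 0 at an unadjusted p under 0.05. The cohesin genes Stag1 (-0.14 ± 0.073 SE, no overlap) and Rad21 (0.17 ± 0.099) and the cohesin loader Nipbl (0.23 ± 0.16) had the smallest p-values. Genes of cadherin cleavage and cytoskeletal partners gave 0.015 over 20 tested of 24, again with 0 at an unadjusted p under 0.05, led by Vcl (vinculin, 0.17 ± 0.083), Aph1b (0.11 ± 0.071) and Psen2 (-0.15 ± 0.10). Their summed linear level was 47789 to 49732 in zinc diet mice and 46927 to 47537 in control mice, also without overlap.

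Marker genes of other cell types also differed by diet, and a bulk level cannot tell a change in the number of cells of a type from a change in RNA per cell. The 6 arrays had medians from 4.04 to 4.09 and pairwise correlations from 0.991 to 0.996. Of 20 striatal spiny neuron markers 18 were tested, all 18 higher with the zinc diet (17 at an unadjusted p under 0.05), and their summed linear level was 23024 to 26628 in zinc diet mice and 15597 to 17944 in control mice. Endothelial and pericyte markers summed to 4299 to 4656 against 4055 to 4236 (12 of 15 tested; Pecam1 and Cdh5 below the filter). The sums overlapped between diets for excitatory neuron (11 of 12 tested), interneuron (11 of 12), astrocyte (12 of 12), oligodendrocyte precursor (7 of 7), microglia (10 of 12) and meningeal markers (5 of 9). Within them, 5 of the 11 excitatory neuron markers had an unadjusted p under 0.05, Rspo2 (0.77), Neurod6 (0.67) and Tbr1 (0.41) higher and Lmo3 (-0.43) and Neurod1 (-0.36) lower with the zinc diet. So did 3 of the 5 meningeal markers, all higher, namely Ogn (1.68), Islr (0.74) and Col1a2 (0.52). The excitatory sums were 14344 to 15687 in zinc diet mice and 14593 to 15073 in control mice, and the meningeal sums 490 to 542 and 354 to 1012. The amygdala's excitatory and inhibitory neuron markers were thus present, with Nkx2-1 below the filter. Choroid plexus markers summed to 833 to 4295 in zinc diet mice and 2634 to 27285 in control mice, the highest in control replicate 9, with 5 of 14 tested and Folr1, Aqp1, Otx2, Foxj1, Cldn2, Tmem72 and Slc4a5 below the filter. The part of these cells in the member differences was not tested. Without control replicate 9, Cdh4, Cdh6, Pcdh17, Pcdh19, Pcdh8 and Pcdhb21 had an unadjusted p under 0.05. Pcdh20 and Pcdhb20 no longer did, although the Pcdh20 difference was still -0.45. Both also missed that threshold when control replicate 11, zinc diet replicate 7 or zinc diet replicate 10 was left out. The loss is thus not particular to the mouse with the high choroid plexus markers.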

How the data were processed

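Amygdala RNA of 6 mice was measured on 6 arrays, 1 a mouse; per the labels' protocols, 500 ng of total RNA was labelled with a 3′ in vitro transcription kit. The values are log2 probe set levels as the authors deposited them in 1 table; the tools, per the submitters' processing notes, were GCRMA 2.28.0 and R 2.15.1, with no order given. The table does not state scale, centring or filters; log2 was read from the values, and no detection call was at hand. Of 45101 probe sets, 64 controls were left out, and 22877 with a mean of at least 4 entered the two-sided limma test (version 3.58.1, R 4.3.3; lmFit, then eBayes, with diet as the single term), with Benjamini-Hochberg adjustment over all of them and a threshold of 0.05. Background shares are over the highest-mean probe set of each of 11221 genes in the same fit. SE is the moderated standard error. The p-values weigh the difference between diets against the spread between these mice, which eBayes moderates with the spread of all probe sets tested. With 3 arrays per diet, their number limits the precision. The fit was tested on simulated data.

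Members and gene lists were chosen with earlier results of these data known. Members named with every mouse's value were those at an unadjusted p under 0.05, those without overlap and a change of at least 0.25, the largest change of each role group, and 14 genes fixed by name, of which Cdh1 was not tested. From each partner list the 3 genes with the smallest p were named; further genes were named after their values were seen. Partner and marker genes took the RefSeq symbol of their Entrez number. Summed linear levels run over all listed genes on the array, those below the filter included, so genes with high levels weigh most. The alternatives were other filters, array weights, quantile normalization, averaging all tested probe sets of a gene, eBayes with trend and robust settings, values under 4 set to 4, centring each array on its median and each mouse left out. Using unmarked probe sets only and using the second highest probe set were added after seeing the data. RefSeq coordinates serve the promoter windows and the order and neighbours of the beta cluster genes only.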

Additional observations from a re-analysis of the deposited data

How the results depend on the processing

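No paired analysis was possible because the diets share no replicate number in the labels. No member passed the adjusted threshold under any of 17 alternatives. Over all probe sets 0 passed, but 2 did with a mean of at least 6, 3 with trend and robust eBayes and 1 gene when its probe sets were averaged; leaving out each mouse gave 0 in every case. Members higher at an unadjusted p under 0.05 numbered 3, and 5 with array weights, 1 with the second highest probe set and 1 to 4 with a mouse left out. Those lower numbered 5, and 2 with the second highest probe set and 1 to 5 with a mouse left out. The second highest probe set exists for 18 members only. The median of the cadherins (0.036) ranged from -0.014 to 0.070 with a mouse left out. The median of the protocadherins (0.13) was 0.075 with no filter, which adds 14 genes, -0.014 with the second highest probe set, and 0.082 to 0.14 with a mouse left out. Of 19 named members 15 kept their sign in every alternative run; the others reversed in 1 each, Cdh10 (-0.12) and Pcdh9 (-0.014) with the second highest probe set, Cdh13 (0.040) with the mean of probe sets and Cdh8 (-0.042) without control replicate 11, against 0.34 without control replicate 1. Using the second highest probe set moved Pcdh20 to -0.13 and Pcdh17 to -0.14. For values near 4 a low level cannot be told from background.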

Other observations

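The promoter windows of tested members were richer in bases G and C than the RefSeq windows as a whole: 20 windows of 17 members had a median of 61.0% and 18 CpG pairs, against 52.7% and 7 over all 32851 windows. Pcdh17 had 65.0% and 26 CpG pairs and Pcdh19 67.7% and 18, whereas Cdh6 had 53.0% and 8 and Pcdh20 43.7% and 4. A match to TATAAA was found in 2 of the 20 member windows (13.6% of all), 1 of them in the Pcdh8 window. The cyclic AMP response element TGACGTCA was found in 0 of the 20 (1.79% of all), and CANNTG, the E-box, in 12 of 20 (72.3% of all).

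Single mice were unevenly placed among the 34 tested members. Zinc diet replicate 10 was the highest of the 6 mice in 11 genes, and control replicate 9 was the lowest in 10 genes and the highest in 1. These counts were not made over all genes tested, so they are not shown to be particular to the members. The pooled SD within a diet had a median of 0.13 over the members and 0.12 over all genes tested. It reached 0.33 in Pcdhb9, whose zinc diet replicate 10 stood at 6.31 against 5.47 to 5.84 in the other mice.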
